A study of Rattus norvegicus with 14 samples.

Results

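The circadian clock genes were examined in colonocytes, the epithelial cells lining the colon, of rats whose diet was either normal in protein (NPD) or high in protein (HPD). The 10 genes were Arntl, Clock, Per1, Per2, Per3, Cry1, Cry2, Nr1d1, Nr1d2 and Dbp. They were chosen by name: every non-control array probe that carried one of these gene names was taken, which gave 16 of the 30367 probes and 10 of the 26276 gene names on the array, and every one of the genes was present. Young male Wistar rats were fed for 15 days with a diet in which whole milk protein supplied 14% (NPD) or 55% (HPD) of the energy. The diets had the same energy density, so the HPD also held less starch and sucrose. All rats lived under 12 h of light and 12 h of darkness that started at 7 PM, had free access to their diet, and were anesthetized with pentobarbital (40 mg/kg) before the colon was perfused with EDTA to detach the colonocytes. Each rat gave 1 single-dye Agilent array, and there were 7 arrays per diet. The hour of the day at which each rat was sampled is not given in the sources used here.

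The circadian clock is a transcriptional loop with a period of about a day that runs in nearly every cell, epithelial cells of the gut included. The proteins of Arntl (also called Bmal1) and Clock bind together to E-box sequences and switch on the Per and Cry genes, whose proteins then accumulate and shut their own activators off. A second loop joins on through Nr1d1 and Nr1d2 (REV-ERBα and REV-ERBβ), nuclear receptors that are switched on by the same activators and repress Arntl and Cry1, and Dbp is an output transcription factor that binds D-boxes and is among the genes with the strongest daily swing. In the intestine the clock is known to be set by the time of feeding as well as by light.

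Control sequences known from this loop were looked for in the RefSeq promoter windows of the genes (build GRCr8, 250 bases before to 50 bases after the start of the gene). A window was held for 9 of the 10 genes, 11 windows in all because Clock and Nr1d1 had 2 each, and Cry1 is named only. The motifs were the E-box CACGTG, the D-box TTATGTAA or TTACGTAA, the cyclic AMP response element TGACGTCA and the core TAGGTCA of the element bound by REV-ERB and ROR receptors (RORE), each read on both strands. No positions of different motifs overlapped in these windows. The RORE core was found in Arntl, where it started 16 bases before the gene, and in 2.63% of the 33469 promoters of the table. The D-box was found in Per2 and in 1.01% of all promoters. The E-box was found in the second window of Nr1d1 and in 6.42% of all promoters, and the cyclic AMP response element was found in 0 of the 11 windows and in 1.83% of all promoters. The 3 windows that held a motif are shown from 5′ to 3′ on the strand of the gene, up to the last base before its start, with the motif in capitals, because they belong to an activator, a repressor and a receptor whose levels over the rats are described below.
Arntl promoter with a RORE core, chr1:176766078-176766327, plus strand: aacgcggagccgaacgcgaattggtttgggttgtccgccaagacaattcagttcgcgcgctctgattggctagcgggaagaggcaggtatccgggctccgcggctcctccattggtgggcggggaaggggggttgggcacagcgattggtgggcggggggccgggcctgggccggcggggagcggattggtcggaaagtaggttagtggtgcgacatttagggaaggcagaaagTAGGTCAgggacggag
Per2 promoter with a D-box, chr9:99496994-99497243, minus strand: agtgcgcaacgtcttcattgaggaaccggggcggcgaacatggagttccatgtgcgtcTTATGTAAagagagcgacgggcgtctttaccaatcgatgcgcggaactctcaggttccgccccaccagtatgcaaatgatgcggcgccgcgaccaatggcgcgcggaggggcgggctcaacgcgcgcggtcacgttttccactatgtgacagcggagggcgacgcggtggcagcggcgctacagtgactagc
Nr1d1 second promoter with an E-box, chr10:84229455-84229704, minus strand: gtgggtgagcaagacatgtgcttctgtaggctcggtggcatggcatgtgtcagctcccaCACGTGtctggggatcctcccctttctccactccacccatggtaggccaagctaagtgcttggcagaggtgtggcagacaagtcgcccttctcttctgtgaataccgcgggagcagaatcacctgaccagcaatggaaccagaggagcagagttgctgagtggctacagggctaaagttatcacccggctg

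The hybridisations were spread over 2 slides with a separate scan run for each. On slide 1 were NPD rats 1 to 4 and HPD rats 1 to 3, and on slide 2 were NPD rats 5 to 7 and HPD rats 4 to 7. The slide and the rats on it cannot be told apart, and 12164 of the 30367 probes (40.1%) differed between the slides at a q-value below 0.1 in a limma fit of diet and slide. The number of probes well above background ranged from 18862 to 21002 per array. The median net signal of an array, on the linear scale of the scanner, was between 114 and 179 in the NPD group and between 89.7 and 129 in the HPD group, and its part in the results was not tested. The markers of colonocytes were well above background on every array for 10 of 10 genes, among them Cdh1, Epcam, Vil1 and Krt20, and 0 of them were called between the diets. Markers of other cells were measured too: 7 of 8 immune genes were on the array, 0 were called, and the sum of their signals over the array median was between 21.9 and 87.3 in the NPD group and between 15.7 and 27.8 in the HPD group. The immune marker Ptprc was well above background on every array by its brightest probe, but on 2 NPD and 0 HPD arrays by its other probe. Cd3e was so on 3 NPD arrays and on 0 HPD arrays. For the stromal and muscle list, with 6 of 6 genes on the array and Col3a1 above background on 1 array, these sums were 10.7 to 25.2 and 10.2 to 18.8. They were 3.92 to 6.23 and 4.07 to 7.77 for the endothelial list (3 of 3 genes), 36.1 to 61.0 and 45.7 to 151 for the red blood cell list (3 of 3), and 1.30 to 1.94 and 1.03 to 1.99 for the nerve and glia list (4 of 4, S100b above background on 0 arrays). For the goblet list (5 of 5) they were 4320 to 6490 and 3440 to 8740, for the enteroendocrine list (5 of 5) 588 to 1210 and 457 to 1390, and for the list of stem and cycling cells (5 of 6) 64.9 to 109 and 56.1 to 102. None of these lists had a called probe, against 17 of all 30367 probes (0.056%). With another background correction (normexp), which called 16.9% of all probes, some listed genes were called by their brightest probe. These were 2 colonocyte, 1 goblet, 1 stem and cycling, 1 immune and 2 stromal and muscle genes, and 0 of the enteroendocrine, endothelial, red blood cell or nerve and glia genes. The part of these lists in the results was not tested. Since RNA of many cells was pooled in each sample, fewer cells of a type and less RNA per cell cannot be told apart.

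None of the clock genes passed the threshold set for a difference between the diets. That does not show equal levels. In simulated data the fit recovered 25.8% of log2 changes of 0.5, but those data also held 68 probes changed by 2 and 66 changed by 1. In the real data 17 probes were called, and the SE of the difference reached 0.50 for Dbp, so this rate cannot be carried over to the clock genes. With limma over all probes and a Benjamini-Hochberg q-value below 0.1 as the threshold, 0 of the 16 clock gene probes were called (q from 0.439 to 0.988), against 17 of 30367 probes (0.056%), all of which were higher in the HPD group. At an unadjusted p below 0.05, 0 of the 16 clock gene probes passed, against 11.4% of all probes. With quantile normalization 2 of the 16 passed, against 3558 of all 30367 probes. With cyclic loess 3 of the 16 passed, against 3539 of all probes. For 0 of the 16 probes did the 2 groups not overlap, against 0.273% of all probes. Counting the brightest probe of each gene, 7 genes had a higher HPD mean and 3 a lower one, and their median difference was 0.11 on the log2 scale, which was also the median of all probes. Other processing changed how many probes were called in all, but 0 of the 16 clock gene probes were called also when 16.9% of all probes were called (normexp background correction), 11.1% (median pixel signal, blocked by slide), 27.9% (normexp, blocked by slide), 0.132% (cyclic loess, blocked by slide) or 0.0263% (blocked by replicate number). In the authors' table, which has 1 row per gene name, 0 of the 10 clock genes were called when blocked by slide, against 10.5% of 26414 names. All values below are log2 signals relative to the median of the array, so a value of 1 is a doubling of the array median, and levels of different probes cannot be set against each other. The brightest probes lie, by the positions of the array design (rat build rn4), at chr1:171161969-171162028 (Arntl), chr14:34243744-34243803 (Clock), chr10:55866200-55866259 (Per1), chr9:90645610-90645669 (Per2), chr5:168152779-168152838 (Per3), chr7:20708985-20709044 (Cry1), chr3:76802802-76802861 (Cry2), chr10:87543165-87543519 (Nr1d1) and chr1:96178423-96178482 (Dbp), and the Nr1d2 probe has no position. Gene models of that build were not used here, so exons and introns are not named.

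Neither activator passed the test between the diets. Arntl, the partner of Clock, was between 3.89 and 4.98 in NPD rats (median 4.67) and between 4.38 and 4.96 in HPD rats (median 4.59), and the 2 lowest values were those of NPD rats 6 and 7. Its difference, HPD minus NPD, was 0.06 ± 0.17 (SE, n = 7 per group, limma q = 0.869). The second Arntl probe, which followed the first over the 14 rats (Pearson r = 0.80, Spearman rho = 0.84, as a description), had a difference of -0.43 ± 0.33 (limma q = 0.537) and ran from 0.87 to 2.84 in the HPD group and from 0.97 to 2.84 in the NPD group. Clock was between 1.07 and 1.79 in NPD rats (median 1.38) and between 1.32 and 1.78 in HPD rats (median 1.70). Of the 7 HPD rats, 6 were above the NPD mean, but none was above the highest NPD rat. The difference of Clock was 0.26 ± 0.12 (limma q = 0.439), with a 95% interval from -0.00152 to 0.52. An exact two-sided permutation test over the 1716 distinct splits of the rats gave p = 0.0332 for Clock and p = 0.745 for Arntl, not adjusted over the genes.

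Among the repressors, Per3 and Per1 had the highest HPD means relative to NPD and Cry1 the lowest. Per3 was between 1.46 and 2.03 in NPD rats (median 1.53) and between 1.49 and 2.37 in HPD rats (median 1.98), and 3 HPD rats were above every NPD rat. The difference was 0.31 ± 0.15 (SE, n = 7 per group, limma q = 0.441), with a 95% interval from -0.01 to 0.63 (exact permutation p = 0.0565). All 4 NPD rats of slide 1 lay near 1.5, while the NPD rats of slide 2 lay at 1.76 or above. The 2 other Per3 probes gave differences of 0.30 ± 0.34 (limma q = 0.660) and -0.61 ± 0.34 (limma q = 0.472), the last one from a dim probe that was well above background on 5 NPD and 2 HPD arrays. Per1, a Per gene that also answers to glucocorticoids, was between -1.80 and -1.03 in NPD rats and between -1.55 and -0.72 in HPD rats, a difference of 0.23 ± 0.14 (limma q = 0.505, exact permutation p = 0.114). Per2, measured by 10 spots per array, was between 1.89 and 3.45 in NPD rats (median 2.38) and between 1.88 and 4.12 in HPD rats (median 2.21). HPD rat 6 and NPD rat 6 had the highest Per2 values of their groups, and the groups differed by -0.06 ± 0.33 (limma q = 0.940).

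Cry1, a repressor of the Arntl and Clock pair, was between 3.70 and 4.61 in NPD rats (median 4.03) and between 2.81 and 5.00 in HPD rats (median 3.56). The HPD rats spanned the NPD rats on both sides, since 4 HPD rats were below every NPD rat and 1 was above. The difference of the means was -0.38 ± 0.28 (SE, n = 7 per group, limma q = 0.515), with a 95% interval from -0.98 to 0.21 (exact permutation p = 0.225). The SD between rats was 0.33 in the NPD group and 0.72 in the HPD group. Cry2, its paralogue, varied little: NPD rats were between 2.14 and 2.74 and HPD rats between 2.27 and 2.78, with a difference of 0.10 ± 0.12 (limma q = 0.682).

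The receptors and Dbp had wide ranges between rats. Nr1d1 was between 0.39 and 1.32 in NPD rats (median 1.08, SD 0.36) and between -0.66 and 2.43 in HPD rats (median 1.06, SD 1.01). HPD rat 6 had the lowest Nr1d1 value and HPD rat 3 the highest, 8.53-fold apart, while the group means differed by 0.12 ± 0.37 (SE, n = 7 per group, limma q = 0.879). Nr1d2 was between -1.55 and -0.45 in NPD rats (median -1.41) and between -3.10 and -0.56 in HPD rats (median -1.15), where the lowest value, of HPD rat 2, was not well above background. Its difference was -0.16 ± 0.33 (limma q = 0.815). Dbp was between 3.66 and 6.28 in NPD rats (median 4.64) and between 3.36 and 6.57 in HPD rats (median 5.20). NPD rat 1 and HPD rat 1 had the lowest values of their groups and NPD rat 7 and HPD rat 6 the highest, and over all 14 rats Dbp spanned 9.25-fold. The difference between the diets was 0.34 ± 0.50 (limma q = 0.736), with a 95% interval from -0.72 to 1.41 that takes in changes in both directions. The 2 other Dbp probes followed the first over the rats (Pearson r = 0.98 and 0.97, Spearman rho = 0.98 and 0.97, as a description) and gave differences of 0.11 ± 0.34 (limma q = 0.875) and -0.01 ± 0.37 (limma q = 0.988).

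**Figure D1:**
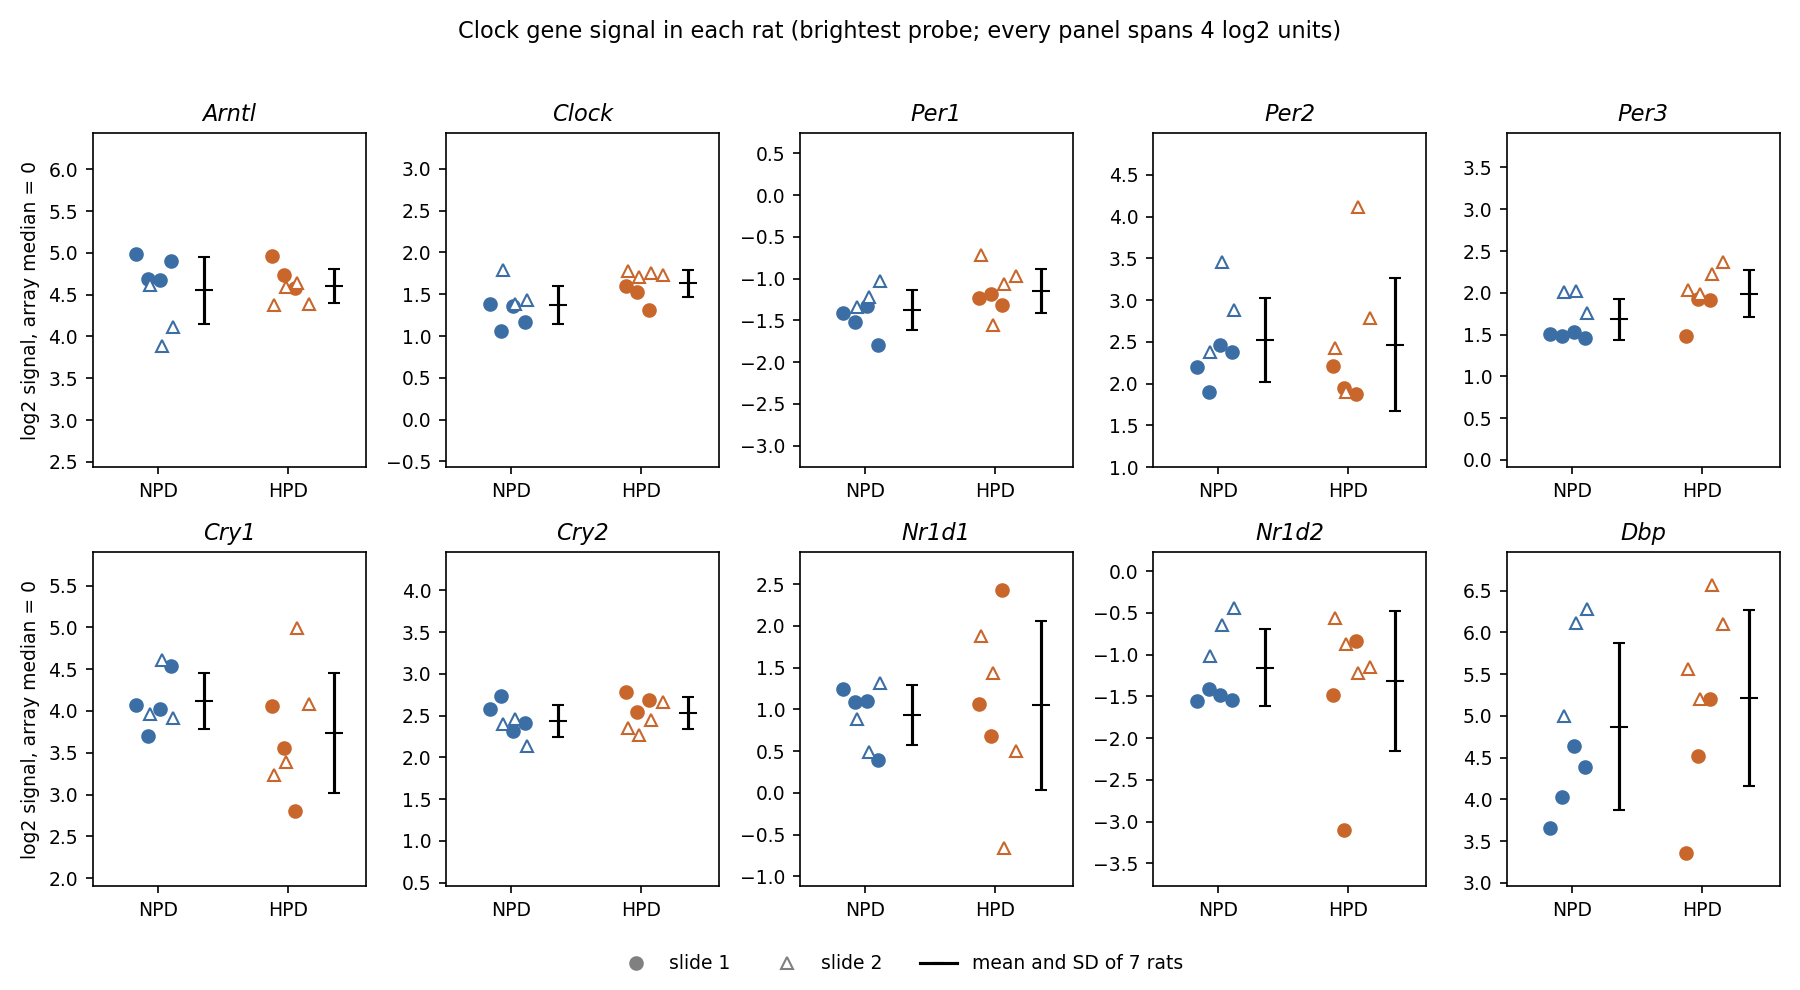
Log2 signal of the brightest probe of each clock gene in each rat, relative to the array median, with NPD rats in blue and HPD rats in orange, circles for slide 1, open triangles for slide 2, and bars for the mean and SD of 7 rats. The groups overlap in every panel, Dbp and Nr1d1 span the widest ranges, and the Dbp triangles lie at 5.00 or above.

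**Figure D2:**
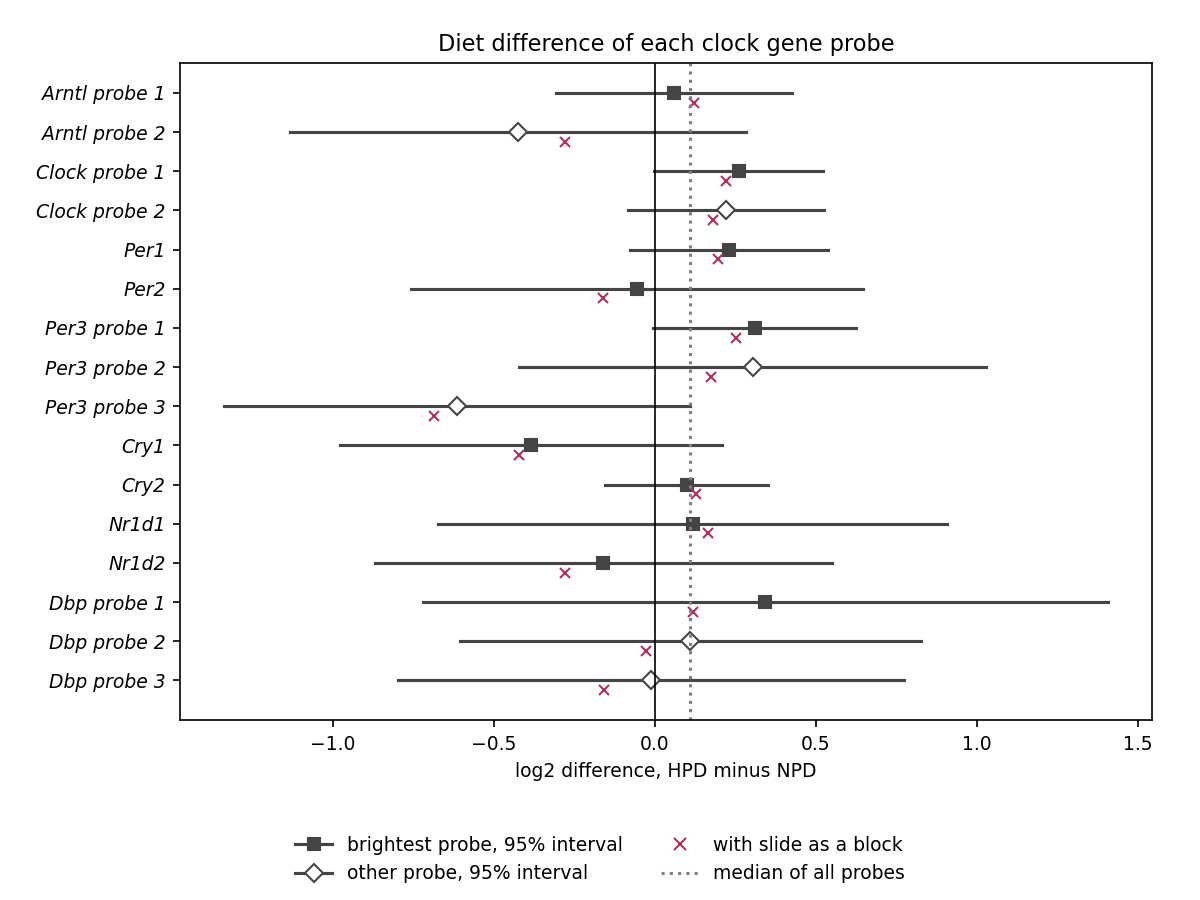
Difference between the diets (HPD minus NPD, log2) for each of the 16 clock gene probes with its 95% interval, as filled squares for the brightest probe of a gene and open diamonds for its other probes, with crosses for the estimate that has slide as a block and a dotted line at the median of all probes, 0.11. Every interval includes 0.

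The slide of the array went with several clock genes. In the limma fit of diet and slide, 6 of the 10 brightest probes and 11 of the 16 probes (68.8%) differed between the slides, against 40.1% of all probes (27.9% higher on slide 2). These shares cover unlike probes. Well above background on every array of a diet were 15 of the 16 clock gene probes, but 18398 of all 30367. Dbp was higher on slide 2 by 1.56 ± 0.31 on the log2 scale (SE, limma q = 0.00301), and its values were 3.36 to 5.20 on slide 1 and 5.00 to 6.57 on slide 2. Of the 17455 probes well above background on every array, 0.372% had a gap between the slide means at least as large as that of Dbp. This share was 6.9% for Nr1d2, 9.92% for Per2, 35.5% for Per3, 38.8% for Arntl and 54.5% for Clock. The 2 other Dbp probes were higher by 0.96 ± 0.24 (limma q = 0.00841) and 1.03 ± 0.27 (limma q = 0.0112). Nr1d2 was higher on slide 2 by 0.82 ± 0.27 (limma q = 0.0314), Per2 by 0.73 ± 0.28 (q = 0.0627), Per3 by 0.41 ± 0.10 (q = 0.00768) and Clock by 0.27 ± 0.09 (q = 0.0368), whereas Arntl was lower by -0.43 ± 0.13 (q = 0.0198). The second Arntl probe was lower by -1.04 ± 0.20 (q = 0.00273), and its 7 values on slide 2 were all below its 7 values on slide 1. Per1, Cry1, Cry2 and Nr1d1 did not pass the threshold between slides (q from 0.132 to 0.528).

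With slide as a block, 0 of the 16 probes were called between the diets (27 of all probes, 0.0889%), and 2 of them passed an unadjusted p below 0.05, against 14.6% of all probes. These were the brightest probes of Clock (0.22 ± 0.09, limma q = 0.293) and Per3 (0.25 ± 0.10, limma q = 0.263). Regrouping the rats only within their slide gave exact two-sided permutation p = 0.0237 for Clock and p = 0.0171 for Per3 over 1225 regroupings, not adjusted over the genes. Within slide 1 the differences were 0.24 for Clock and 0.28 for Per3, and within slide 2 they were 0.20 and 0.22. For Dbp the difference was 0.18 within slide 1 and 0.06 within slide 2, for Cry1 -0.61 and -0.24, and for Nr1d1 0.44 and -0.11. In a test of the interaction of diet and slide, 0 of 16 clock gene probes were called, against 0 of 30367 over all probes. With 3 or 4 rats per diet on a slide, this does not show that the diet effects were equal.

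The spread between rats was set against that of all probes well above background on every array. After the mean of each diet on each slide was subtracted, the SD over rats was 0.79 for Nr1d1 (higher than or equal to 98.5% of 17455 probes), 0.66 for Dbp (97.4%), 0.59 for Per2 (96.2%), 0.58 for Cry1 (95.9%) and 0.56 for Nr1d2 (95.4%). The median SD over these probes was 0.22. The SD was 0.23 for Per1, 0.22 for Arntl, 0.17 for Cry2, 0.16 for Per3 and 0.15 for Clock. By the brightest probe, 5 genes had an SD at or above that of 95.4% of probes and 5 lay near or below the median. The Nr1d2 SD takes in HPD rat 2, whose value was not well above background. Other probes of a gene can differ. Without the subtraction, the SD was 0.68 for the second Arntl probe (brightest 0.31) and 0.68 for the second Per3 probe (brightest 0.30). For the second Clock probe it was 0.27 (brightest 0.24).

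The clock genes varied together over the rats in some pairs and not in others. Over 45 pairs and 14 rats, 7 pairs had a Benjamini-Hochberg adjusted p below 0.05 by Pearson's r (two-sided permutation tests with 100000 resamples), 4 of them positive and 3 negative, and 5 pairs did by Spearman's rho. The rats were shuffled without regard to diet or slide, so a shift between the slides enters these p-values. Subtracting the mean of each diet on each slide moved r in both directions. It brought Clock with Per3 from 0.71 to -0.07, but Arntl with Clock from -0.14 to 0.72 and Nr1d1 with Nr1d2 from 0.29 to 0.64. By Pearson's r, Cry1 and Nr1d1 were the most closely related pair, at r = -0.90 (permutation p = 1e-05, the smallest that the resamples can give, adjusted p = 0.00045). Their rho was -0.82 (permutation p = 0.0005, adjusted p = 0.0075), while rho lay farther from 0 for Arntl with Nr1d2 (-0.91) and Arntl with Dbp (-0.85). In the authors' table r was -0.79 for Cry1 with Nr1d1 and -0.85 for Arntl with Dbp. HPD rat 6 had the highest Cry1 (5.00) and the lowest Nr1d1 (-0.66), and HPD rat 3 had the lowest Cry1 (2.81) and the highest Nr1d1 (2.43). Without these 2 rats, which were the farthest from the Cry1 median, r was -0.75. It was -0.82 among the 7 rats of slide 1 (exact permutation p = 0.045), -0.94 among the 7 rats of slide 2 (exact permutation p = 0.0002), -0.84 among NPD rats, -0.95 among HPD rats, and -0.92 after the mean of each diet on each slide was subtracted. Of 17454 other probes well above background on every array, Nr1d1 itself was the 1 probe with an r this low against Cry1, with and without that subtraction.

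Per2 went with Cry1 (r = 0.77, permutation p = 0.00093, adjusted p = 0.01, and rho = 0.65, permutation p = 0.014, adjusted p = 0.07) and against Nr1d1 (r = -0.70, permutation p = 0.0064, adjusted p = 0.041, and rho = -0.49, permutation p = 0.077, adjusted p = 0.21). For Per2 and Cry1, r was 0.79 on slide 1 and 0.92 on slide 2, and 18 of 17454 probes (0.103%) had an r at least as high with Cry1. Of 17454 other probes, 1.04% had an r with Per2 as low as that of Nr1d1. Without HPD rat 6 and NPD rat 6, r was 0.51 for Per2 and Cry1 and was -0.31 for Per2 and Nr1d1, so the second relation rests on those 2 rats.

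Arntl and Dbp moved in opposite directions, with r = -0.79 (permutation p = 0.00057, adjusted p = 0.01) and rho = -0.85 (permutation p = 0.00014, adjusted p = 0.0031). Within slides r was -0.83 (slide 1, exact permutation p = 0.023) and -0.40 (slide 2, exact permutation p = 0.37), it was -0.63 after diet and slide means were subtracted, and it was -0.80 without the 2 rats farthest from the Arntl median. Of 17453 other probes, 0.372% had an r with Arntl as low as that of Dbp, and 315 probes did after the subtraction. Seen from Dbp the value was more common, since 5.22% of 17452 other probes had an r with Dbp as low as that of Arntl. HPD rat 6 lay off the trend, with the highest Dbp of all rats (6.57) at an Arntl value of 4.64.

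Dbp also went with Per3 (r = 0.80, permutation p = 0.00089, adjusted p = 0.01, and rho = 0.78, permutation p = 0.0016, adjusted p = 0.019) and with Per2 (r = 0.71, permutation p = 0.0028, adjusted p = 0.025, and rho = 0.66, permutation p = 0.013, adjusted p = 0.07). A value like that of Per3 was common for Dbp, since 19.3% of 17452 other probes had an r with Dbp at least as high. Seen from Per2, 3.2% of 17454 other probes had an r at least as high as that of Dbp. Within slides, Dbp and Per3 had r = 0.66 and 0.24, and Dbp and Per2 had r = -0.20 and 0.85. Without the 2 rats farthest from the median of Per3 or Per2, r was 0.79 and 0.56. Clock and Per3 (r = 0.71, permutation p = 0.006, adjusted p = 0.041, and rho = 0.69, permutation p = 0.0077, adjusted p = 0.058) had r = 0.58 without the 2 rats farthest from the Clock median, 0.31 and 0.51 within the slides and -0.07 after diet and slide means were subtracted. Of 17453 other probes, 7.74% had an r with Clock at least as high as that of Per3. By Spearman's rho alone, Nr1d2 went against Arntl (rho = -0.91, permutation p = 3e-05, adjusted p = 0.0013, r = -0.60, permutation p = 0.03, adjusted p = 0.14) and with Dbp (rho = 0.72, permutation p = 0.0047, adjusted p = 0.043, r = 0.52, permutation p = 0.046, adjusted p = 0.16). Within slides these pairs had r = -0.12 and -0.69, and 0.07 and -0.03. Without the 2 rats farthest from the Arntl median (NPD rats 6 and 7), the first pair had r = -0.48. That value still holds HPD rat 2, whose Nr1d2 value was not well above background. Without the 2 rats farthest from the Nr1d2 median (HPD rat 2 and NPD rat 7), the second pair had r = 0.66.

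**Figure D3:**
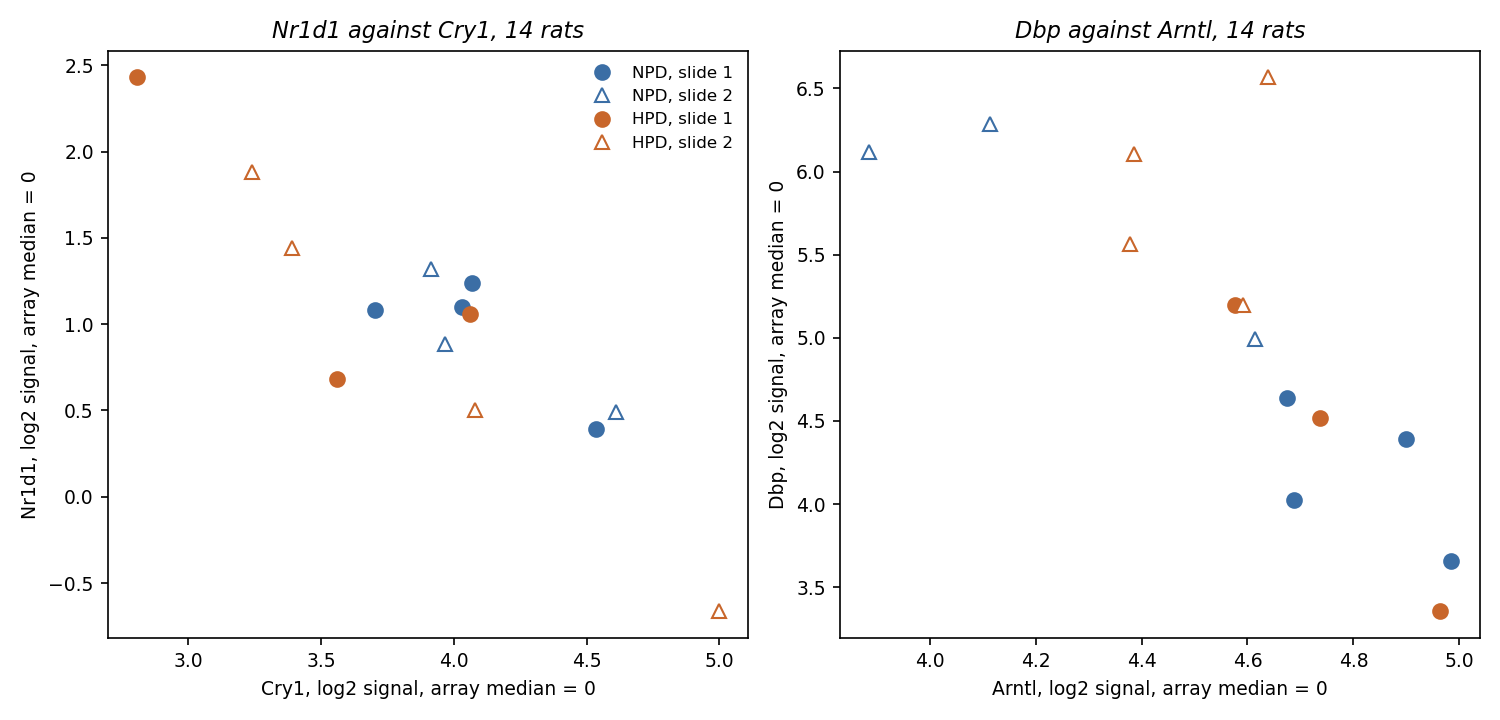
Log2 signal of Nr1d1 against Cry1 (left) and of Dbp against Arntl (right) in the 14 rats, relative to the array median, by diet (colour) and slide (filled circles or open triangles). Both pairs run from upper left to lower right, and Nr1d1 falls with Cry1 on both slides.

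**Figure D4:**
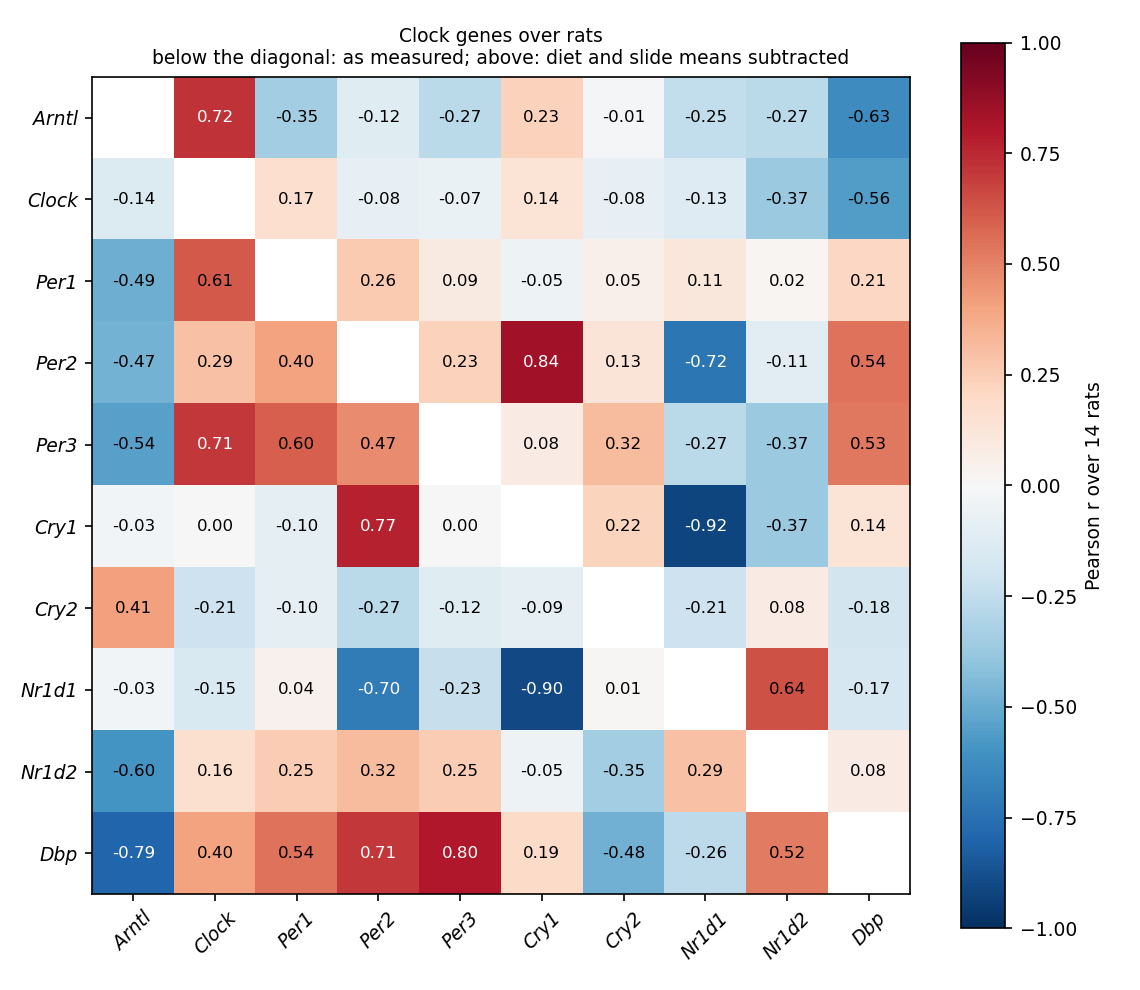
Pearson r between clock genes over 14 rats, as measured (below the diagonal) and after the mean of each diet on each slide was subtracted (above the diagonal), on a colour scale from -1 to 1. Cry1 with Nr1d1 (-0.90 and -0.92) and Cry1 with Per2 (0.77 and 0.84) keep their values, while Clock with Per3 goes from 0.71 to -0.07.

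Other genes of the clock network, listed by function, were measured in the same way. Of 27 listed genes, 24 were on the array with 31 probes. Of these probes 0 were called between the diets (q from 0.417), against 0.056% of all probes. Of the 24 brightest probes, 6 (25.0%) passed an unadjusted p below 0.05, against 11.4% of all probes. That count depended on the scaling: of the 31 probes 6 passed at first, 3 with centring on the 75th percentile, 2 with quantile normalization, 2 with cyclic loess and 12 with the replicate block. Over all 30367 probes these counts were 3465, 3594, 3558, 3539 and 6438, in the same order. By diet, 12 of the 24 had a higher and 12 a lower HPD mean, and their median difference was 0.00, against 0.11 over all probes. On slide, 16 of 24 (66.7%) were called, against 40.1% of all probes, many of them dim.

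Nfil3 had the largest difference of the network. It encodes a repressor that competes with the Dbp family for D-boxes. It was between 1.74 and 3.17 in NPD rats (median 2.60) and between 1.02 and 2.44 in HPD rats (median 1.46), a difference of -0.81 ± 0.26 (SE, n = 7 per group, limma q = 0.417). Regrouping the rats gave exact permutation p = 0.0157 over all splits and p = 0.0008 within slides, not adjusted over the genes, and with slide as a block the difference was -0.69 (limma q = 0.207). Nfil3 passed the threshold with normexp background correction (-0.74, limma q = 0.0893), where 16.9% of all probes were called. Blocked by slide, it also passed in the authors' table (-0.68, limma q = 0.039), where 10.5% of names were called. With quantile normalization or cyclic loess, 0 of the network probes were called. Bhlhe40, a repressor of the Arntl and Clock pair, differed by -0.48 ± 0.22 (limma q = 0.430), with NPD rats between 1.11 and 2.37 and HPD rats between 0.83 and 2.20. Nampt, an enzyme of NAD synthesis under clock control, differed by -0.40 ± 0.18 (limma q = 0.437), and Ppargc1a, a coactivator of mitochondrial genes, by -0.40 ± 0.25 (limma q = 0.507). Npas2, which can stand in for Clock, differed by -0.34 ± 0.33 (limma q = 0.617) and Tef, a relative of Dbp, by -0.19 ± 0.32 (limma q = 0.773). Hlf, the third relative, was well above background on 1 of 14 arrays (difference 0.72 ± 0.48, limma q = 0.515), Ciart, a repressor, on 3 (0.34 ± 0.45, limma q = 0.710) and Rorb on 0 (0.52 ± 0.20, limma q = 0.417).

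The network genes were also set against Dbp over the 14 rats, a comparison chosen after the data were seen. In these permutations too, the rats were shuffled without regard to slide. Of 24 genes, 17 (70.8%) had an adjusted permutation p below 0.05 by Pearson's r, 10 positive and 7 negative, but 55.7% of 17452 probes had an r at least as far from 0 as the weakest of these 17. Npas2 had the lowest of these, r = -0.94 (permutation p = 1e-05, adjusted p = 0.00024) and rho = -0.90 (permutation p = 3e-05, adjusted p = 0.00072). It had r = -0.83 on slide 1, -0.84 on slide 2 and -0.92 without the 2 rats farthest from the Dbp median. Only 9 of 17452 probes (0.0516%) had an r as low. Npas2 was between 3.65 and 5.29 in NPD rats and between 3.21 and 5.27 in HPD rats. Tef had r = 0.84 with Dbp (permutation p = 0.00019, adjusted p = 0.00076, and rho = 0.78, permutation p = 0.0015, adjusted p = 0.0045), 0.59 and 0.82 within slides and 0.77 without the 2 farthest rats, and 12.5% of probes had an r at least as high. Nfil3 had r = -0.75 (permutation p = 0.0028, adjusted p = 0.0067, and rho = -0.67, permutation p = 0.011, adjusted p = 0.016), -0.64 and 0.07 within slides and -0.76 without the 2 farthest rats, and 8.09% of probes had an r as low.

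**Figure D5:**
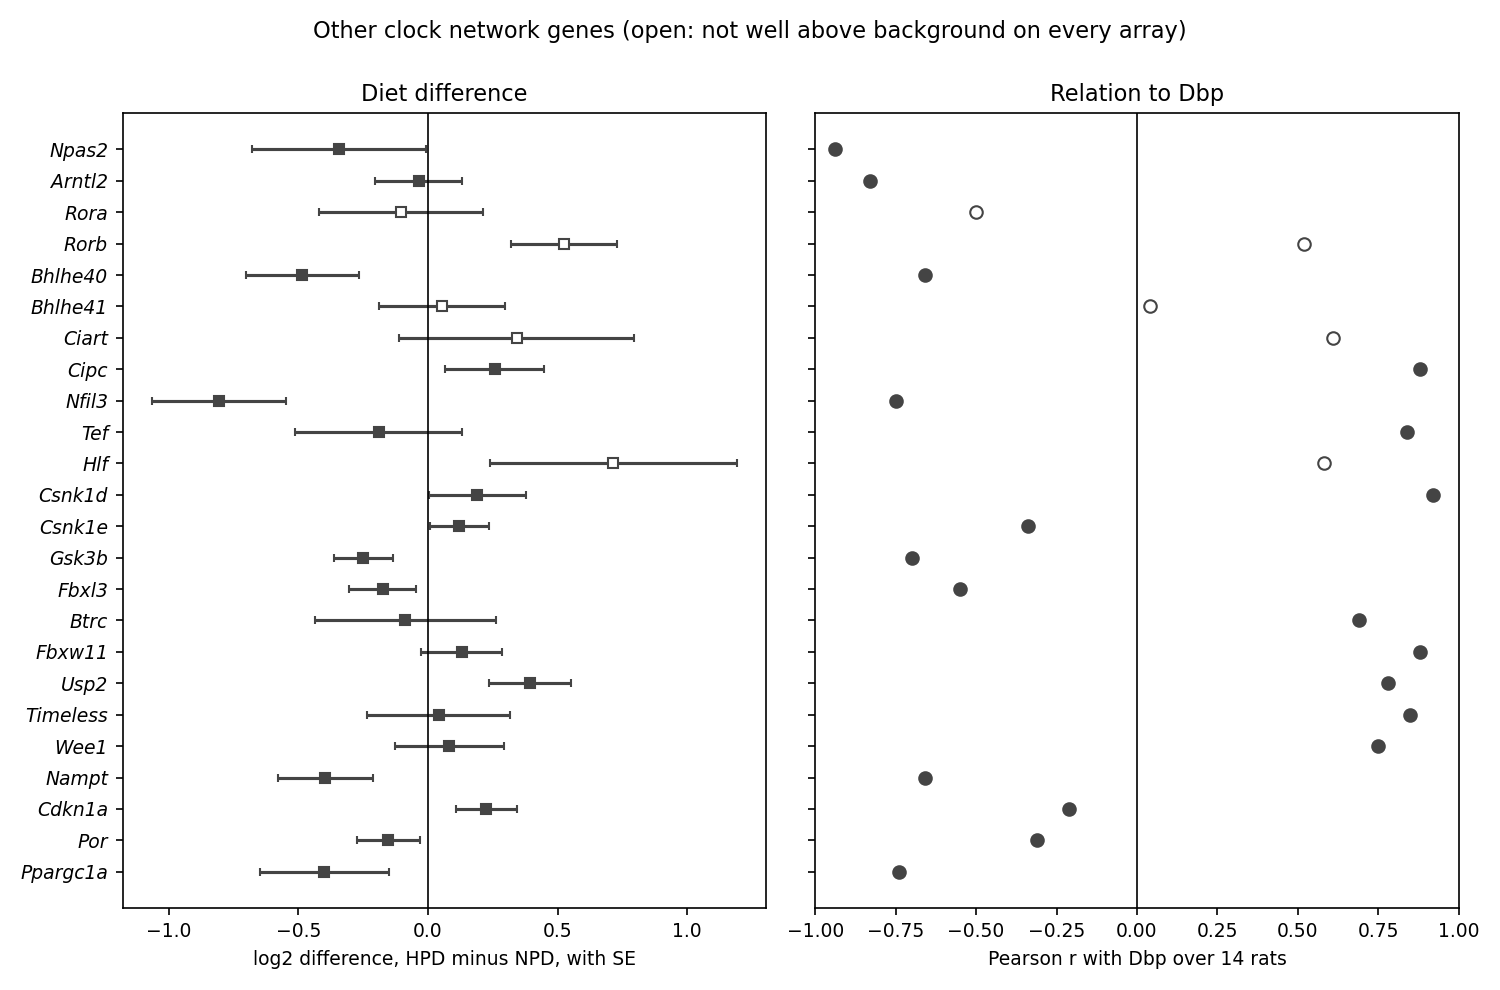
The 24 other clock network genes (brightest probe), with the diet difference and its SE on the log2 scale (left) and the Pearson r with Dbp over 14 rats (right), and open symbols for genes not well above background on every array. Nfil3 lies farthest to the left of 0 by diet (-0.81), and Npas2 has the lowest r with Dbp (-0.94).

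The genes whose pattern over the rats was most like that of Dbp or Arntl were looked up among 15301 gene names with their brightest probe well above background on all 14 arrays, by Pearson r after the mean of each diet on each slide was subtracted, as a description. For Dbp these were BE113996 (r = 0.92), Bhmt2, a methyltransferase (0.90), Nop2, a nucleolar protein (0.90), A_64_P023813, a probe with no gene symbol (0.89), and Gstp1, a glutathione S-transferase (0.89). For Arntl they were Rictor, a component of the mTOR complex 2 (r = 0.96), Foxj2, a forkhead transcription factor (0.91), the probes A_64_P137554 (0.88) and A_64_P035847 (0.87), which have no gene symbol, and Map3k3, a kinase (0.87). Without the subtraction Map3k3 ran against Arntl (r = -0.355), while the other 4 kept a positive r. None of these 10 was called between the diets (limma q from 0.417 to 0.970). All values of a rat share 1 array, so array-wide properties enter every such r.

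Further lists, of 2 kinds, were measured for conditions that can act on Per genes. Of the 6 genes on the list that answers to glucocorticoids, which holds Per1, 0 were called and the median difference between the diets was -0.09, and of 7 immediate early genes on the array 0 were called and the median difference was -0.03. Over all probes 0.056% were called.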

How the data were processed

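Colonocyte RNA of 7 NPD and 7 HPD rats was measured on 1-colour arrays, grouped by the diet in the labels. Deposited for each array was the output of Agilent Feature Extraction 10.7.3.1, with a linear intensity per spot, and, from the authors, a normalized log2 table per gene name, which was used as an alternative. Samples that the authors removed as outliers were not analysed here. Columns of other samples numbered 0. Background-subtracted intensities were log2-transformed without a pseudocount or a filter, control and outlier spots were left out, the spots of a probe were averaged and each array was centred on the median of its probes. The test was limma 3.58.1 (R 4.3.3; diet as the only term, Benjamini-Hochberg over 30367 probes, q below 0.1), and the fit was tested on simulated data, where it recovered 95.6%, 66.7% and 25.8% of log2 changes of 2, 1 and 0.5 among 30330 probes with 21 false calls. Single genes were tested by exact permutation and pairs by permutation (NumPy 2.4.6). The number of arrays limits the precision. Probe positions are those of the array design.

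The members and gene lists were chosen with earlier results of these data known. Named were all 10 genes, the network genes that were called, that had the 6 largest differences or that were fixed by name (Npas2, Tef, Hlf, Nfil3, Bhlhe40, Ciart), and the 5 genes most like Dbp and Arntl. Alternatives were the median pixel signal, normexp (offset 50), the 75th percentile, quantile and cyclic loess normalization, only probes above background, slide and replicate number as blocks, the deposited table, q below 0.05 and leaving out each array.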

Additional observations from a re-analysis of the deposited data

Results flagged for a closer look

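Of 32 groups of 7 values (16 probes in 2 diets), 3 held a rat far from the others by Dixon's criterion, where chance flags about 1 in 20. HPD rat 6 had a Per2 value of 4.12, while the other 6 HPD rats were between 1.88 and 2.79. The same rat had a value of -1.68 for the dimmest Per3 probe, against -3.32 to -2.73 in the others. HPD rat 2 had an Nr1d2 value of -3.10, which was not well above background, against -1.48 to -0.56 in the others.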

How the results depend on the processing

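Under the 31 alternatives 0 clock gene probes were called, with a lowest q-value of 0.121, where 16 probes were tested except in the authors' table (10 gene names) and among probes well above background (15). Of the 31 probes of the other network genes, 0 were called at first and 0 without any 1 array. With normexp 4 were called (16.9% of all probes), with normexp and slide 8 (27.9%), and with the median pixel signal and slide 3 (11.1%). In the authors' table blocked by slide, 4 of 24 gene names were called (10.5% of all names). Hlf, well above background on 1 array, was among the calls each time. Rorb, so on 0 arrays, was among those with normexp. Over all probes the 17 calls became 5142 with normexp, 27 with slide as a block, 2767 in the authors' table with slide, 8479 with normexp and slide, 3360 with the median pixel signal and slide, 40 with cyclic loess and slide, 1 on slide 1 alone and 0 on slide 2 alone, and 9 to 151 without 1 array (151 without HPD rat 1, 28 without HPD rat 6). Chosen after seeing the data were centring on all spots, the slides alone, and normexp, the median pixel signal or cyclic loess joined with slide. The authors' table with slide was planned.

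With the replicate number as a block, 8 probes were called, 0 of them clock genes. Deviations of same-numbered rats correlated above 0.1 in 6 of 7 pairs (0.143 to 0.386) and by -0.09 for number 4, whose rats lay on different slides, and 5 of 14 arrays correlated best with their own number. Since 1 pair missed 0.1 and the labels do not say what the numbers stand for, the rats were not treated as pairs, and whether they are pairs is unknown. With the block the SE of the Dbp difference was 0.173, against 0.499 without it (difference 0.34, limma q = 0.267).

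The diet difference of a clock gene probe kept its sign in 426 alternatives and turned in 41. It turned for Arntl with the median pixel signal (-0.05), normexp (-0.08), the deposited table (-0.22), that table with slide (-0.11), normexp with slide (-0.01) and slide 1 alone (-0.05). It turned for Per2 with centring on all spots (0.01), for Cry2 with normexp (-0.03) and the deposited table (-0.04), for Nr1d1 on slide 2 alone (-0.11), and for Nr1d2 with the median pixel signal (0.03), normexp (0.05) and normexp with slide (0.00). Dbp turned in that table with slide (-0.10) and normexp with slide (-0.01). Its second probe turned with normexp (-0.03), slide (-0.03), normexp with slide (-0.15), the median pixel signal with slide (-0.11), cyclic loess with slide (-0.02) and slide 2 alone (-0.13), and its dimmest with quantile normalization (0.00) and centring on all spots (0.05). Without 1 array the ranges were -0.05 to 0.13 for Arntl, -0.33 to 0.10 for Per2, -0.11 to 0.40 for Nr1d1, -0.29 to 0.14 for Nr1d2, and -0.05 to 0.29 and -0.20 to 0.21 for these other Dbp probes in that order. The first Dbp probe ranged from 0.12 to 0.65, Cry1 from -0.60 to -0.23 and the second Per3 probe from 0.06 to 0.50. The correlation of Clock with Per3 became -0.07 after diet and slide means were subtracted and -0.10 in the deposited table, and that of Per2 with Dbp -0.20 on slide 1 alone. The median of all probes was 0.11 at first, 0.01 with quantile normalization, 0.00 with cyclic loess and 0.17 with centring on all spots. The causes were not tested. Dim probes (the dimmest of Per3, Nr1d2) limit what could be seen.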

Other observations

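Rats of the same number in the 2 diets were set side by side after the data were seen. Over the 7 numbers, Dbp correlated with r = 0.88 (exact permutation p = 0.0083, adjusted p = 0.058 over 10 genes) and rho = 0.82 (exact permutation p = 0.034, adjusted p = 0.34), with r = 0.82 after diet and slide means were subtracted. Per2 had r = 0.90 (exact permutation p = 0.012, adjusted p = 0.058) and rho = 0.43 (exact permutation p = 0.35, adjusted p = 0.96), with r = 0.78 after the subtraction. The other 8 genes had r between -0.33 and 0.51. None of the 10 passed the adjustment, and the labels do not say what the numbers stand for.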
